A study of Mus musculus with 7 samples.

Results

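The genes that carry cholesterol into steroid hormone synthesis and turn it into progesterone, androgens and estrogens were followed in ovarian RNA-seq of mice descended from dams treated with anti-Müllerian hormone (AMH). The members are 10 genes listed by name, namely Star, Cyp11a1, Hsd3b1, Hsd3b6, Cyp17a1, Cyp19a1, Hsd17b1, Srd5a1, Fdx1 and Fdxr. Each name matched 1 Ensembl identifier in the GENCODE M21 annotation of mm10, which gave 10 members among 55487 gene identifiers, and 10 of the 10 were among the 18779 genes with enough counts to be tested.

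Whole ovaries came from 3 CNTR and 4 PAMH F3 females of the C57BL/6J strain at postnatal day 60, in diestrus, with 1 library per mouse. CNTR mice were born to dams given PBS during gestation, and PAMH F3 mice were the third generation after F0 dams were injected with human recombinant AMH (0.12 mg/kg each day between E16.5 and E18.5 of gestation). The F2 and F3 lineages had no further AMH treatment. By the study's scheme the controls were born directly to the injected dams, so that ancestral exposure and generation cannot be told apart. The comparison asks whether ovarian transcripts differ 3 generations after the exposure in a lineage kept as a model of polycystic ovary syndrome.

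Steroid synthesis begins when STAR moves cholesterol to the inner mitochondrial membrane. There CYP11A1 cleaves the cholesterol side chain to make pregnenolone, using electrons that FDXR takes from NADPH and FDX1 passes on. The 3β-hydroxysteroid dehydrogenases make progesterone, CYP17A1 in theca cells makes androgens, and CYP19A1 (aromatase) in granulosa cells makes estrogens from those androgens. HSD17B1 converts estrone to estradiol, and SRD5A1 reduces progesterone and testosterone to their 5α forms. Luteal cells of the corpus luteum carry out the early steps at high rate to make progesterone.

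Hsd3b1 and Hsd3b6 encode close paralogs, and the counts rest on reads of 50 bases that aligned to a single place, so their sequences bear on what could be counted. Hsd3b1 lies on mm10 at chr3:98852194-98859794 and Hsd3b6 at chr3:98805504-98814443, both on the minus strand. Their coding sequences are both 1119 bases long and identical at 1007 of them (89.99%). The first coding bases of each are shown 5′ to 3′ on the coding strand, as in the GENCODE M21 transcripts, with the 7 positions that differ in capitals (chr3:98857905-98857964 for Hsd3b1 and chr3:98810987-98811046 for Hsd3b6).
Hsd3b1: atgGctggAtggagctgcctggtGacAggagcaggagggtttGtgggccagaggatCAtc
Hsd3b6: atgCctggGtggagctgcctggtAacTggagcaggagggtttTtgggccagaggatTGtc
Within 1 exon the longest stretch shared without a difference has 64 bases, at coding positions 755 to 818 of both genes, and a read of 50 bases that lies inside it has no unique place.
Hsd3b1 and Hsd3b6: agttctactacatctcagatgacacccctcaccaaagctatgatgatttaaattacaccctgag
Of the 1070 windows of 50 bases along the aligned coding sequences, 38 (3.551%) were identical between the 2 genes, and 235 (21.96%) differed at 2 positions or fewer.

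A search of each member's 50-base exon windows against all GENCODE M21 transcripts found the same letters in another gene for 4.862% of the Hsd3b1 windows, 15.71% of the Hsd3b6 windows, 15.11% of the Srd5a1 windows and 2.061% of the Cyp11a1 windows. For Star, Cyp17a1, Cyp19a1, Hsd17b1, Fdx1 and Fdxr the share was 0%. The Srd5a1 windows all belong to Gm17108, which shares 476 exon bases with Srd5a1 on the same strand and had 0 to 4 counts per library. Most of the Cyp11a1 windows belong to Gm17322, which shares 145 exon bases with Cyp11a1 and had 63 to 181 counts. Reads that overlap more than 1 gene are set aside in the union mode of counting, so that the shared exon bases of Srd5a1 and Cyp11a1 add to neither gene's count.

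The 250 bases before the start site of Fdx1 and of Fdxr, the electron carrier and its reductase, are shown from RefSeq (GRCm38.p6, minus strand, 5′ to 3′), because Fdx1 was the member whose groups did not overlap. RefSeq promoter entries matched 7 of the 10 members. Capitals mark TGATAA, a motif of the GATA factors. It begins 192 bases before the start site in Fdx1 (chr9:51963603-51963852) and 177 bases before it in Fdxr (chr11:115276970-115277219).
Fdx1: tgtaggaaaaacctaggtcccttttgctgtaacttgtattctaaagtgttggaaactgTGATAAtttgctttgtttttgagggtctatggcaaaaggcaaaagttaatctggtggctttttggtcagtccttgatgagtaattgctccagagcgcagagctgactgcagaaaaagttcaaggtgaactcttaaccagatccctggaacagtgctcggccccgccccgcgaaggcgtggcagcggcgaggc
Fdxr: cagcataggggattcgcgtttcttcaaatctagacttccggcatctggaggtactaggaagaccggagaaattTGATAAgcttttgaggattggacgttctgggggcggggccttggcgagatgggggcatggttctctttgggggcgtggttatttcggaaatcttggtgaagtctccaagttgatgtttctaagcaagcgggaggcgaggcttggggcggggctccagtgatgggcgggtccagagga
Searched on both strands, TGATAA occurred in 7.94% and the related AGATAA in 9.99% of the 32851 promoter windows of the same length. AAGGTCA and AAGGCCA, motifs of NR5A1, occurred in 4.08% and 5.24% of them and TATAAA in 12.4%. Neither NR5A1 motif nor TATAAA was found in the Fdx1 and Fdxr windows, which describes these letters in these windows and nothing more.

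Gene counts summed to 32158174 to 35485021 per library. Levels are given as CPM, edgeR's counts scaled to library size, after TMM normalization. The 10 members took 0.896% to 1.20% of a library's gene counts. Of 4 markers of adrenal cortex, another tissue that makes steroids, Cyp11b2 had 0 counts in the 7 libraries, Cyp21a1 had 0 to 7 counts and Cyp11b1 0 to 13, and the 4 summed to 0.540 to 1.05 CPM in CNTR and 0.282 to 0.753 CPM in PAMH F3. Of 5 theca markers, Insl3 had 0 to 5 counts. Jak3 shares 404 of the 623 exon bases of Insl3 (64.8%) on the same strand, and the part of this overlap in its low count was not tested. The other 4 theca markers and the 7 granulosa markers were counted in every library, among them Amh at 78.0 to 140.4 CPM in CNTR and 68.0 to 112 CPM in PAMH F3.

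The members covered a wide range of levels. Per kilobase of exon, Hsd3b1 stood highest in both groups, with 2589 ± 342 CPM per kb in CNTR (SD, n = 3) and 2698 ± 453 in PAMH F3 (SD, n = 4). Cyp11a1 was next at 956 ± 69.5 and 789 ± 188 CPM per kb. Hsd17b1, Fdx1, Star, Fdxr and Cyp17a1 then lay between 135 and 93.0 CPM per kb in CNTR, below the 2 leading genes in every library. Cyp19a1 at 25.8 ± 18.4 and Srd5a1 at 11.9 ± 1.34 CPM per kb in CNTR followed, and Hsd3b6 was lowest at 0.543 ± 0.132. Within single libraries Hsd3b1 exceeded Cyp11a1 in 7 of 7, Cyp11a1 exceeded Hsd17b1 in 7 of 7, Cyp17a1 exceeded Cyp19a1 in 7 of 7, Cyp19a1 exceeded Srd5a1 in 7 of 7 and Srd5a1 exceeded Hsd3b6 in 7 of 7. The length used is the union of a gene's annotated exons, 4804 bases for Cyp11a1 and 1855 for Hsd3b1. In CPM, without the length, Cyp11a1 exceeded Hsd3b1 in CNTR 2 (4755 against 4084 CPM) and lay below it in the other libraries. The size of the lead of Hsd3b1, and its place in 7 of 7, thus depended on the length used. The order was not fixed among the middle genes, since Hsd17b1 exceeded Fdx1 in 6 of 7 libraries, Fdx1 exceeded Star in 2 of 7, Star exceeded Fdxr in 5 of 7 and Fdxr exceeded Cyp17a1 in 6 of 7. Star and Fdx1 traded the fourth and the fifth place between the groups.

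**Figure D1:**
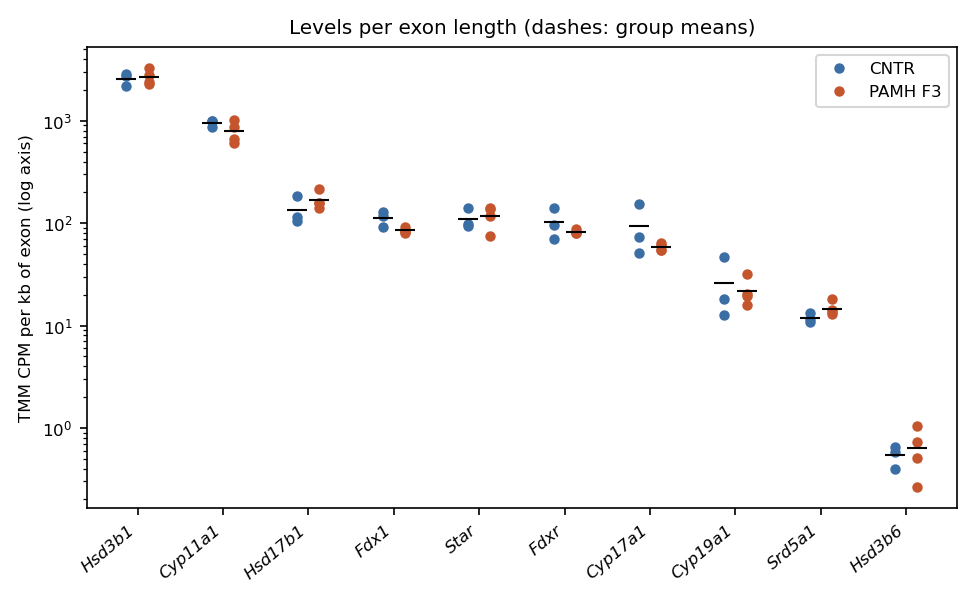
TMM CPM per kb of exon on a log axis for the 10 genes, ordered by the CNTR mean, with 1 point per library (3 CNTR, 4 PAMH F3) and a dash at each group mean. Hsd3b1 (2589 CPM per kb in CNTR) and Cyp11a1 (956) stand above 5 genes between 135 and 93.0, and Hsd3b6 (0.543) lies lowest.

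The groups were compared with edgeR's quasi-likelihood F test across the 18779 genes, with 2 surrogate variables (covariates that sva estimates from the counts to capture unwanted variation) in the model. None of the members passed the threshold. At a Benjamini-Hochberg adjusted p of at most 0.05, 0 of the 10 members and 0 of all genes tested (0%) differed, and the smallest adjusted p was 0.512 among the members and 0.111 over all genes. At an unadjusted p under 0.05, Hsd17b1 and Srd5a1 were higher in PAMH F3 and Fdx1 was lower, that is 2 of 10 members higher and 1 of 10 lower, where 3.75% of all genes were higher and 3.89% lower. Without surrogate variables the counts were 0 higher and 1 lower (Fdx1), against 1.11% and 2.84% of all genes. DESeq2 with those surrogate variables called 0 members at the adjusted threshold (Hsd3b6 received no adjusted p), against 0.575% of all genes, and gave Hsd17b1, Srd5a1 and Fdx1 an unadjusted p under 0.05, against 5.82% of all genes. The fitted change was upward for 5 members and downward for 5, with a median log2 fold change of 0.041 (-0.087 without surrogate variables) beside 0.0049 for all genes.

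**Figure D2:**
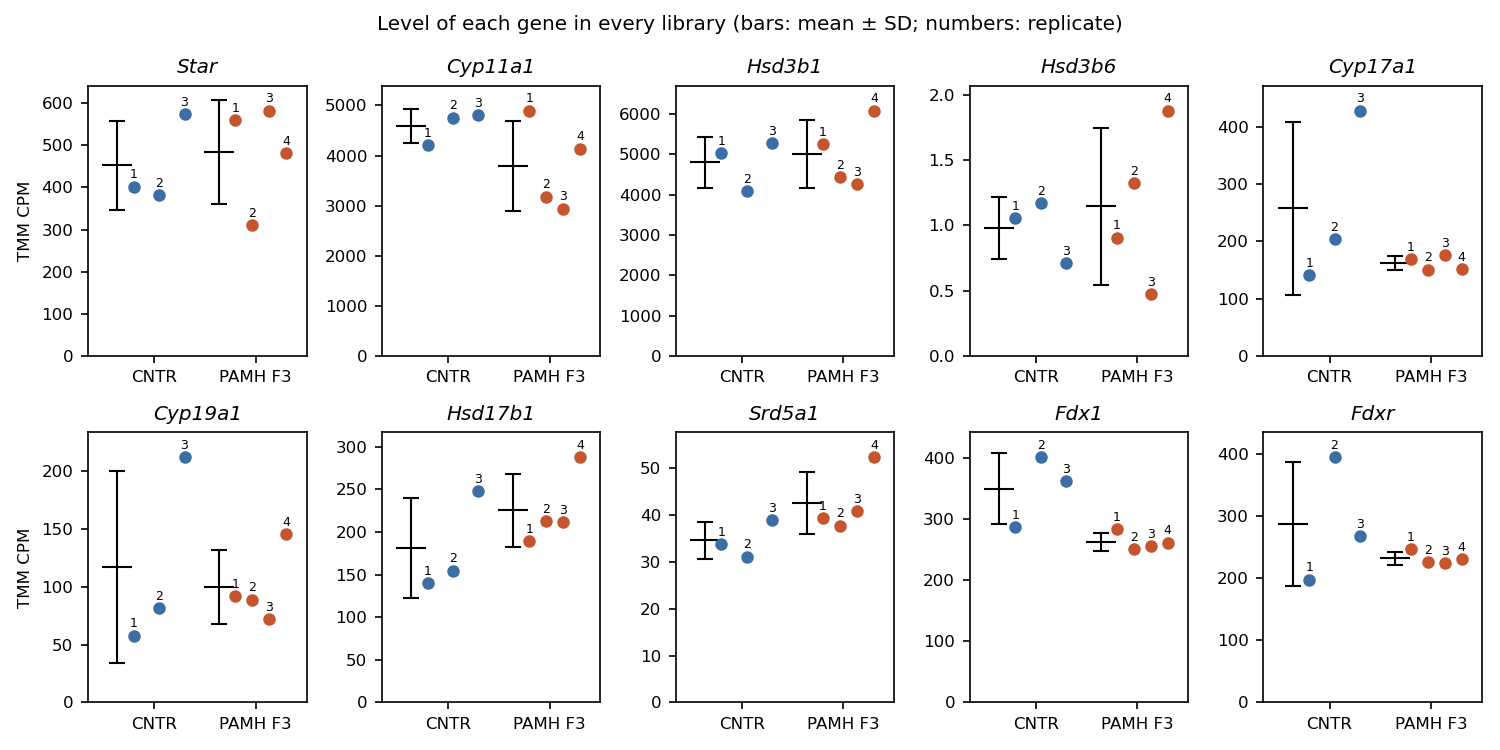
TMM CPM of each gene (vertical axis, from 0) in the 3 CNTR and 4 PAMH F3 libraries, with points numbered by replicate and a bar at the left of each group for its mean ± SD. The groups overlap in 9 of the 10 panels, and in the Fdx1 panel the PAMH F3 libraries (251 to 284 CPM) lie below the CNTR libraries (287 to 402 CPM).

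Star (ENSMUSG00000031574, chr8:25806555-25815982) encodes the protein that delivers cholesterol to the mitochondrial enzyme. Its level was 402, 382 and 573 CPM in CNTR 1, 2 and 3 and 559, 311, 583 and 481 CPM in PAMH F3 1, 2, 3 and 4. Both groups held high and low libraries, and the PAMH F3 range enclosed that of CNTR. The means were 452 ± 105 (SD, n = 3) and 483 ± 123 CPM (SD, n = 4), and the log2 fold change was 0.13 (SE 0.24, 95% interval -0.43 to 0.69, edgeR adjusted p = 0.934).

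Cyp11a1 (ENSMUSG00000032323, chr9:58006411-58027023), the side-chain cleavage enzyme, was at 4206, 4755 and 4810.3 CPM in CNTR and at 4899, 3178, 2939 and 4139 CPM in PAMH F3. PAMH F3 1 was the highest of the 7 libraries, and the other 3 PAMH F3 libraries lay below the lowest CNTR library. The means were 4590.5 ± 334 (SD, n = 3) and 3789 ± 904 CPM (SD, n = 4), a ratio of 0.825 (exact permutation p = 0.314, two-sided). The log2 fold change of -0.30 (SE 0.17, 95% interval -0.71 to 0.10) did not pass (edgeR adjusted p = 0.733).

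Fdx1 (ENSMUSG00000032051, chr9:51943306-51963556), the ferredoxin that hands electrons to the side-chain cleavage enzyme, was at 287, 402 and 362 CPM in CNTR and at 284, 251, 256 and 262 CPM in PAMH F3. The highest PAMH F3 library, PAMH F3 1 at 284.0 CPM, lay just below the lowest CNTR library, CNTR 1 at 287.4 CPM, and the others were further apart. It was the only member whose groups did not overlap, where 2.4% of all genes lay wholly lower and 1.85% wholly higher in PAMH F3. The means were 350.5 ± 58.2 (SD, n = 3) and 263 ± 14.6 CPM (SD, n = 4), a ratio of 0.751. The log2 fold change was -0.32 (SE 0.08, 95% interval -0.52 to -0.12). Its edgeR p was 0.00674 unadjusted and 0.529 adjusted, its DESeq2 adjusted p was 0.116, and the exact permutation test of the mean CPM gave p = 0.0286 (two-sided), the smallest that 35 divisions of the libraries allow. The estimate was negative in each of the 20 other settings tried, from -0.54 to -0.26, with an unadjusted p under 0.05 in 20 of 20 and an adjusted p under 0.05 in 0. These settings refit the same libraries, so that they are not independent of each other, and how many of all genes did the same was not counted. Cyp11a1, Hsd17b1 and Srd5a1 also kept their sign in all 20.

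Fdxr (ENSMUSG00000018861, chr11:115268024-115277050), the reductase upstream of FDX1, was at 198, 396 and 268 CPM in CNTR and at 247, 227, 225 and 231 CPM in PAMH F3. The 4 PAMH F3 libraries were close together, while CNTR held both the lowest and the highest library. The means were 287 ± 100.2 (SD, n = 3) and 232 ± 9.92 CPM (SD, n = 4), and the log2 fold change was -0.08 (SE 0.13, 95% interval -0.37 to 0.22, edgeR adjusted p = 0.923). CNTR 2, the highest library for Fdx1 and Fdxr, also had the steepest slope of counts on GC content, at 0.298 in log2 per 10% of GC, where the other libraries lay between -0.119 and 0.0452. The longest transcript of Fdxr is 60.0% GC, the highest share among the members, and that of Fdx1 is 44.4% GC, the lowest. The part of GC content in the high CNTR 2 levels was not tested. Without CNTR 2 the log2 fold change of Fdx1 was -0.26 and that of Fdxr 0.056. In fits without surrogate variables, a correction for GC content and length moved the log2 fold change of Fdxr from -0.31 to -0.054 and that of Fdx1 from -0.41 to -0.46.

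Among the enzymes that make progesterone, Hsd3b1 (ENSMUSG00000027871), the main ovarian form, was at 5037, 4084 and 5285 CPM in CNTR and at 5247, 4436, 4253 and 6086 CPM in PAMH F3. The groups overlapped over most of their range. The means were 4802 ± 634 (SD, n = 3) and 5006 ± 840.1 CPM (SD, n = 4), and the log2 fold change was -0.011 (SE 0.09, 95% interval -0.21 to 0.19, edgeR adjusted p = 0.992). Hsd3b6 (ENSMUSG00000027869), a form known from adrenal and Leydig cells, had only 17 to 60 counts per library, or 1.05, 1.17 and 0.712 CPM in CNTR and 0.907, 1.33, 0.474 and 1.88 CPM in PAMH F3. PAMH F3 held both the lowest and the highest library. The interval of its log2 fold change ran from -1.01 to 1.28 around 0.13 (SE 0.49, edgeR adjusted p = 0.976), so that its direction was not resolved. The ratio of Hsd3b6 to Hsd3b1 CPM was 0.000112 to 0.000309 in a library. Hsd3b1 had 136105 to 194115 counts per library, and the part of reads from this close paralog in the few Hsd3b6 counts was not tested.

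**Figure D3:**
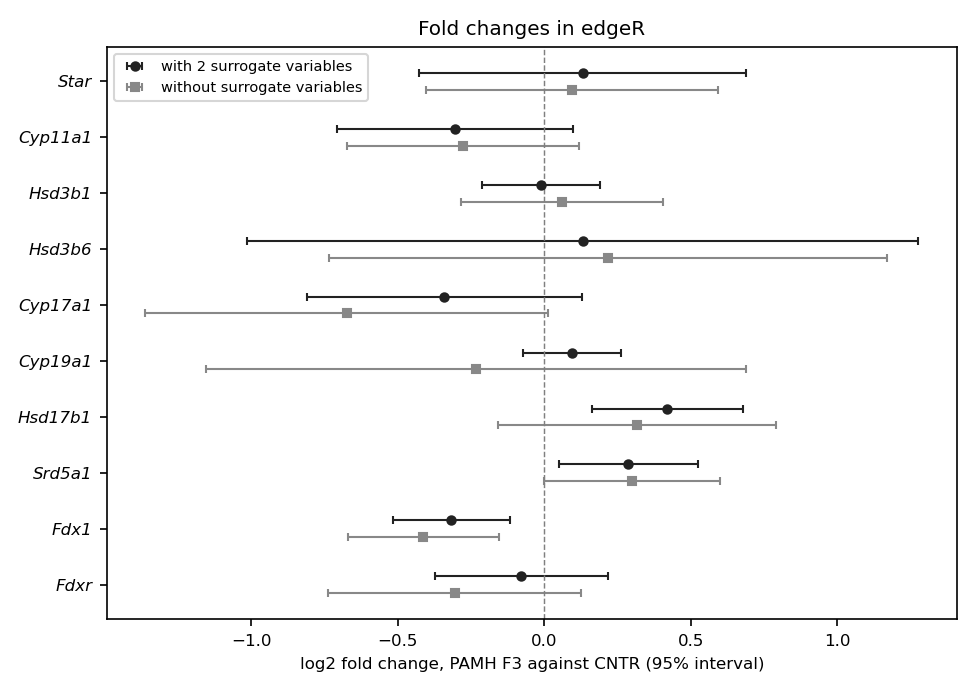
log2 fold change of each gene in PAMH F3 against CNTR (horizontal axis, above 0 is higher in PAMH F3) with its 95% interval, from edgeR with 2 surrogate variables (black circles) and without them (gray squares). The black intervals of Hsd17b1, Srd5a1 and Fdx1 leave out 0, and among the gray intervals only that of Fdx1 does. Cyp19a1 has an SE of 0.07 with the surrogate variables and 0.41 without.

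Cyp17a1 (ENSMUSG00000003555, chr19:46667165-46673172), the theca cell enzyme of androgen synthesis, was at 141, 203 and 428 CPM in CNTR and at 168, 151, 175 and 151 CPM in PAMH F3. The PAMH F3 libraries lay close together between CNTR 1 and CNTR 2, and CNTR 3 stood far above every PAMH F3 library. The means were 258 ± 151 (SD, n = 3) and 161 ± 12.3 CPM (SD, n = 4), with a coefficient of variation of 58.6% in CNTR and 7.61% in PAMH F3. The ratio of means was 0.627 (exact permutation p = 0.143, two-sided), and the log2 fold change was -0.34 (SE 0.20, 95% interval -0.81 to 0.13, edgeR adjusted p = 0.740). This value moved with single libraries, to 0.018 without CNTR 3, -0.094 without PAMH F3 4 and -0.83 without CNTR 1, where the edgeR adjusted p of 0.0349 was the only call of a member in any setting tried.

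Cyp19a1 (ENSMUSG00000032274, chr9:54165937-54268110), which encodes aromatase, was at 57.6, 81.2 and 212 CPM in CNTR and at 91.7, 88.7, 72.0 and 145 CPM in PAMH F3. CNTR held both the lowest and the highest library, as for Cyp17a1 (the highest being CNTR 3 for both genes). The means were 117 ± 83.1 (SD, n = 3) and 99.4 ± 31.8 CPM (SD, n = 4). The log2 fold change was 0.09 with the surrogate variables (SE 0.07, edgeR adjusted p = 0.805) and -0.23 without them (SE 0.41, edgeR adjusted p = 0.997), so that its direction depended on the model. The log2 ratio of mean CPM was -0.23 and became 0.52 without CNTR 3.

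Hsd17b1 (ENSMUSG00000019301, chr11:101078411-101080527), the granulosa cell enzyme that makes estradiol from estrone, was at 139.9, 155 and 248 CPM in CNTR and at 189, 212, 212 and 288 CPM in PAMH F3. The 4 PAMH F3 libraries lay above CNTR 1 and CNTR 2, and CNTR 3 lay above 3 of them. The means were 181 ± 58.6 (SD, n = 3) and 225 ± 43.2 CPM (SD, n = 4), a ratio of 1.24. The log2 fold change was 0.42 (SE 0.11, 95% interval 0.16 to 0.68). Its edgeR p was 0.00603 unadjusted and 0.512 adjusted, its DESeq2 adjusted p was 0.0740, and the exact permutation test of the mean CPM gave p = 0.286 (two-sided). Without surrogate variables it was 0.32 (SE 0.21, 95% interval -0.16 to 0.79, edgeR adjusted p = 0.997). It was 0.19 without CNTR 1.

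Srd5a1 (ENSMUSG00000021594, chr13:69573449-69611442), the 5α-reductase, was at 33.9, 31.2 and 38.9 CPM in CNTR and at 39.4, 37.7, 40.9 and 52.4 CPM in PAMH F3. Only CNTR 3 and PAMH F3 2 were out of order between the groups. The means were 34.6 ± 3.91 (SD, n = 3) and 42.6 ± 6.67 CPM (SD, n = 4), a ratio of 1.23. The log2 fold change was 0.29 (SE 0.10, 95% interval 0.049 to 0.52). Its edgeR p was 0.0245 unadjusted and 0.599 adjusted, and the exact permutation test of the mean CPM gave p = 0.114 (two-sided). In bulk tissue, fewer cells of a type and less RNA per cell cannot be told apart for any of these genes.

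The members differed in which mouse stood highest. CNTR 3 was highest for Cyp17a1 and Cyp19a1, CNTR 2 for Fdx1 and Fdxr, and PAMH F3 4 for Hsd3b1, Hsd3b6, Hsd17b1 and Srd5a1. CNTR 1 was lowest for Cyp17a1, Cyp19a1, Hsd17b1 and Fdxr. The spread among ovaries of 1 group, taken as edgeR's dispersion of each gene, was at percentile 96.6 of all genes tested for Cyp19a1, 96.2 for Hsd3b6 and 89.8 for Cyp17a1, against 30.7 for Fdx1 and 41.1 for Srd5a1.

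**Figure D4:**
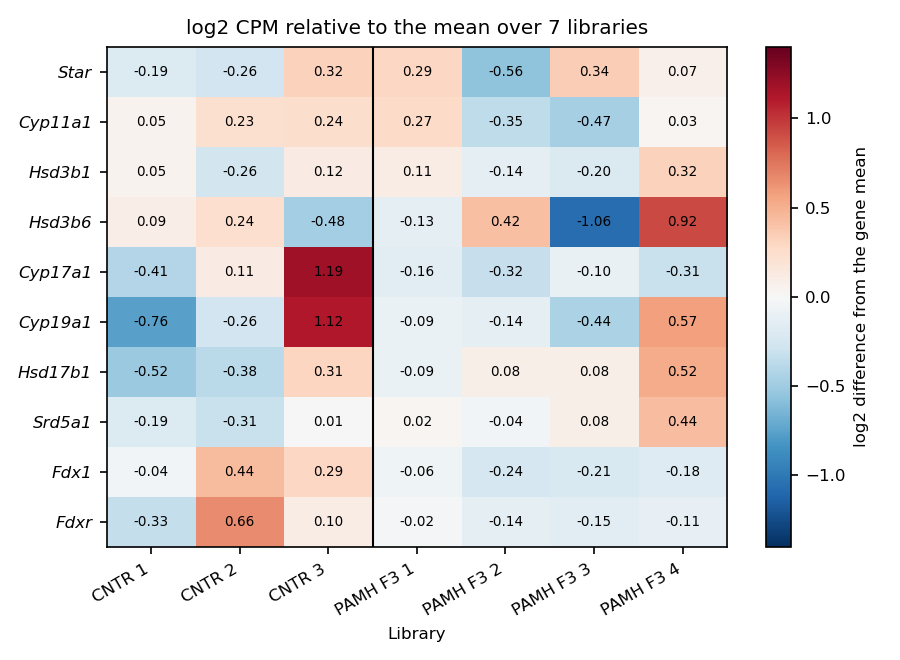
log2 CPM of each gene (rows) in each library (columns) as the difference from that gene's mean over the 7 libraries, colored from blue (lower) to red (higher), with a line between CNTR and PAMH F3. CNTR 3 stands out for Cyp17a1 (1.19) and Cyp19a1 (1.12), CNTR 2 for Fdxr (0.66), and PAMH F3 4 for Hsd3b6 (0.92).

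Of 4 pairs of members compared across the 7 libraries, Cyp19a1 and Hsd17b1, which act in sequence in granulosa cells, had the highest correlation of log2 CPM (Pearson r = 0.787, exact permutation p = 0.0361, adjusted over the 4 pairs p = 0.129, and Spearman rho = 0.786, exact permutation p = 0.0480, adjusted p = 0.176). It was 0.605 without CNTR 3 and PAMH F3 4. Cyp11a1 and Fdx1, enzyme and electron donor, had r = 0.703 (exact permutation p = 0.0647, adjusted p = 0.129) and rho = 0.714 (exact permutation p = 0.0881, adjusted p = 0.176), and r was 0.610 without PAMH F3 2 and PAMH F3 3. The means of both genes were lower in PAMH F3, and r was 0.530 when log2 CPM was centered within each group. Cyp17a1 and Star had r = 0.440 (exact permutation p = 0.340, adjusted p = 0.454) and rho = 0.500 (exact permutation p = 0.267, adjusted p = 0.356), with r = 0.747 once CNTR 2 and CNTR 3 were left out. Star and Cyp11a1, the first 2 steps, had r = 0.203 (exact permutation p = 0.642, adjusted p = 0.642) and rho = 0.0714 (exact permutation p = 0.906, adjusted p = 0.906), with r = -0.13 without CNTR 2 and PAMH F3 2. No pair passed after adjustment, and the libraries share their scaling.

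Ratios between members within a library do not depend on that scaling. The ratio of Cyp19a1 to Cyp17a1 CPM, estrogen against androgen enzyme, was 0.408, 0.399 and 0.495 in CNTR and 0.545, 0.588, 0.411 and 0.960 in PAMH F3. Of the PAMH F3 libraries, 3 lay above the CNTR range and PAMH F3 3 lay within it, and the mean log2 ratio was 0.47 higher in PAMH F3 (exact permutation p = 0.143, two-sided, adjusted over the 5 ratios p = 0.714), or 0.24 higher without PAMH F3 4. The ratio of Star to Cyp11a1 was 0.0955, 0.0804 and 0.119 in CNTR and 0.114, 0.0977, 0.198 and 0.116 in PAMH F3, with PAMH F3 3 alone above the CNTR range (difference in log2 0.38, exact permutation p = 0.286, adjusted p = 0.714). The difference in log2 was 0.35 for Srd5a1 to Cyp19a1 (exact permutation p = 0.514, adjusted p = 0.821), -0.10 for Fdx1 to Cyp11a1 (exact permutation p = 0.657, adjusted p = 0.821) and 0.03 for Hsd3b6 to Hsd3b1 (exact permutation p = 0.943, adjusted p = 0.943). Leaving out CNTR 3 turned the difference of Srd5a1 to Cyp19a1 to -0.11, and leaving out CNTR 1 made it 0.73. That of Hsd3b6 to Hsd3b1 ran from -0.25 to 0.33 with a library left out, that of Star to Cyp11a1 from 0.17 to 0.53 and that of Fdx1 to Cyp11a1 from -0.19 to 0.00022. The groups overlapped for each of the 5 ratios.

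Other genes of the pathway were taken from a list of 38 enzymes and carriers, of which 35 were in the annotation and 25 were tested, and a list of 13 regulators and gonadotropin receptors, of which 13 were tested. None passed the adjusted threshold in edgeR. At an unadjusted p under 0.05, 0 of the 25 enzymes and carriers were higher in PAMH F3 and 1 was lower, and of the 13 regulators 0 were higher and 2 lower, where 3.75% of all genes were higher and 3.89% lower. The median log2 fold changes were -0.03 and -0.01. Hsd3b4, Hsd3b5, Cyp11b2 and Hsd17b6 had no count in any library.

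Tspo, which encodes a cholesterol-binding protein of the outer mitochondrial membrane, was at 53.8, 97.2 and 60.7 CPM in CNTR and at 45.1, 53.7, 55.9 and 42.0 CPM in PAMH F3. CNTR 2 was the highest library, and the groups overlapped only in that PAMH F3 3 lay above CNTR 1. Its log2 fold change was -0.32 (SE 0.06, unadjusted edgeR p = 0.00139, adjusted p = 0.400, exact permutation p = 0.0571). With a DESeq2 adjusted p of 0.0424, Tspo was the only gene of the 2 lists called by that tool, which called 0.575% of all genes. Foxl2, a transcription factor of granulosa cells, was at 50.02, 82.4 and 66.0 CPM in CNTR and at 41.0, 51.7, 54.6 and 49.9 CPM in PAMH F3, again with CNTR 2 highest (log2 fold change -0.25, SE 0.07, unadjusted edgeR p = 0.0108, adjusted p = 0.540, exact permutation p = 0.0857). Crem, which encodes a transcription factor of the cAMP pathway, was at 31.3, 33.0 and 34.1 CPM in CNTR and at 29.7, 29.5, 27.7 and 26.0 CPM in PAMH F3. The highest PAMH F3 library lay below the lowest CNTR library, as for 2.4% of all genes, and its log2 fold change was -0.20 (SE 0.08, unadjusted edgeR p = 0.0429, adjusted p = 0.642, exact permutation p = 0.0286). Nr5a1, the nuclear receptor that controls many of the members, had a log2 fold change of 0.04 (edgeR adjusted p = 0.928), and the LH receptor gene Lhcgr one of -0.20 (edgeR adjusted p = 0.764).

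Markers of the cell types that hold these enzymes were read beside the members. The 7 granulosa markers summed to 4768 to 7011 CPM in CNTR and 5513 to 7545 CPM in PAMH F3, with CNTR 3 and PAMH F3 4 highest in their groups, as for Hsd3b1, Cyp19a1, Hsd17b1 and Srd5a1. Gja1 (2080 to 3762 CPM over all libraries) and Inha (1318 to 2130 CPM) were the largest parts of this sum. Amh (140.4 and 112 CPM) and Foxl2 (82.4 and 54.6 CPM) were instead highest in CNTR 2 and PAMH F3 3. The 5 theca markers summed to 226 to 268 CPM in CNTR and 205 to 274 CPM in PAMH F3, and CNTR 3, the highest library for Cyp17a1, had the lowest CNTR sum of 226 CPM. Ptch1, at 133 to 158 CPM in CNTR, was the largest part of this sum. Within CNTR, Ptch1, Enpep and Gli1 were lowest in CNTR 3, by little against CNTR 2 for Ptch1 and Enpep. Tcf21 was lowest in CNTR 1 (34.9 CPM, against 43.0 in CNTR 3). The 5 luteal markers summed to 1819, 1756 and 3170 CPM in CNTR and to 2049, 1221, 1501 and 1681 CPM in PAMH F3, with a ratio of means of 0.717 (exact permutation p = 0.200, two-sided). Among them Ptgfr, the prostaglandin F receptor gene of luteal cells, was at 577, 516 and 883 CPM in CNTR and at 593, 302, 227 and 309 CPM in PAMH F3, and Akr1c18, which encodes a progesterone-degrading enzyme and is in both the luteal and the enzyme list, was at 203, 333 and 1043 CPM and at 277, 119.7, 557 and 359.5 CPM. The fitted log2 fold changes were -0.95 for Ptgfr, -0.36 for Prlr, -0.20 for Lhcgr, -0.067 for Akr1c18 and 0.099 for Parm1, which lay the other way. PAMH F3 1, highest for Cyp11a1, was also the highest PAMH F3 library for the luteal sum, and PAMH F3 2 and 3, lowest for Cyp11a1, were the lowest. In CNTR the orders differed. CNTR 3 was highest for both, but CNTR 2 had the lowest luteal sum and CNTR 1 the lowest Cyp11a1. At an unadjusted p under 0.05 in edgeR, 1 of the 7 granulosa markers was higher (Inhbb) and 2 were lower (Amh and Foxl2), 1 of the 4 theca markers tested was lower (Tcf21), and 2 of the 5 luteal markers were lower (Ptgfr and Prlr), beside 3.75% of all genes higher and 3.89% lower. DESeq2's adjusted p for Inhbb was 0.00343, the only marker past the threshold in that tool, where 0.575% of all genes passed. The edgeR adjusted p of Inhbb was 0.447. The 4 markers of oviduct epithelium, a neighboring tissue, summed to 3007 to 5303 CPM in CNTR and 2573 to 6428 CPM in PAMH F3, and the 4 adipocyte markers to 121 to 345 CPM and 52.0 to 249 CPM. The 4 stroma markers summed to 1485 to 1529 CPM in CNTR and 1126 to 1460.1 CPM in PAMH F3, a ratio of means of 0.877 (exact permutation p = 0.114, two-sided), and theirs were the only sums that did not overlap between the groups. The part of cell composition in the levels of the members was not tested.

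For 3 members the genes with the most similar pattern were sought by the root mean square (RMS) difference of centered log2 CPM over the 7 libraries, among 15676 genes with a mean of at least 1 CPM. For Star, whose own RMS about its mean was 0.323, they were 2810408A11Rik at 0.132, Col22a1 at 0.144, Sgpp2 at 0.149, Zfp992 at 0.157 and Coch at 0.160. For Cyp17a1, with an RMS of 0.511, they were Hspa1a at 0.218, Dysf at 0.224, Pcdhb8 at 0.232, Aldh1l2 at 0.245 and Slc6a7 at 0.246. For Cyp19a1, with an RMS of 0.592, they were Cd226 at 0.223, Slfn14 at 0.251, Gm21168 at 0.252, Gpr179 at 0.265 and Csmd1 at 0.266. None of the 15 is another member or is on the lists of steroid enzymes, regulators and markers.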

How the data were processed

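Ovarian RNA-seq libraries of 3 CNTR and 4 PAMH F3 mice were analysed. The authors prepared stranded poly(A) libraries, sequenced single reads of 50 bases, mapped them to mm10 with STAR 2.5.3a and assigned reads with a single alignment to Ensembl genes with HTSeq 0.6.1p1 in union mode. The deposited values are these raw counts per gene, without normalization, and the strand setting of the counting is not given in the sources used here. The summary lines (45.8% to 47.5% of all lines' counts, mostly alignments that were not unique) were left out of library sizes and tests, so that a gene with near-identical copies is counted only where its sequence is its own.

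Symbols and positions came from GENCODE M21, which matched 55394 identifiers. Levels are TMM CPM, with factors from all gene rows. Genes kept by filterByExpr (minimum count 10) were tested in edgeR 4.0.16 (R 4.3.3) with its quasi-likelihood F test, modeling the group and 2 surrogate variables from svaseq (sva 3.50.0, genes with a mean normalized count above 1), adjusted by the Benjamini-Hochberg method at a threshold of 0.05. With 3 residual degrees of freedom, the number of mice limits the precision. The p values of this fit measure the spread between single mice that remains after the surrogate variables. For Cyp19a1 the SE was 0.07 with these variables and 0.41 without them. DESeq2 1.42.0, without independent hypothesis weighting, was an alternative, as were other numbers of surrogate variables, normalization, filters, a replicate block, a correction for GC content and length, and each library left out. The edgeR and DESeq2 fits were also run on simulated counts that held group differences but no unwanted variation. That setting is simpler than these data and does not test how the surrogate variables act here. CPM means, ratios and correlations used exact permutation tests over 35 divisions or 5040 orders. The 50-base windows were compared with annotated transcripts, not with the genome.

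The members, gene lists, ratios and pairs were chosen with earlier results of these data known. Other genes were named where the unadjusted p was under 0.05 or the groups did not overlap, and the genes most similar to Star, Cyp17a1 and Cyp19a1 were the 5 with the smallest RMS difference. Nr5a1 and Hsd17b7 were named outside this rule, and Lhcgr and Akr1c18 as luteal markers. The sample labels give the injections as subcutaneous and the study's methods as intraperitoneal.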

Additional observations from a re-analysis of the deposited data

How the results depend on the processing

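Of the 200 log2 fold changes of the members under 20 other settings, 178 kept their sign and side of the threshold, 21 changed sign and 1 passed the threshold. Members past the adjusted threshold numbered 0 to 1 when each library was left out. At an unadjusted p under 0.05, members higher in PAMH F3 numbered 0 without surrogate variables, 1 in DESeq2 without them, 0 in edgeR without them but with the GC and length correction, and 1 to 3 with a library left out. Members lower numbered 2 with 3 surrogate variables, in DESeq2 without surrogate variables and without a filter, and 1 to 4 with a library left out. The share of all genes at this p was taken only in edgeR with 2 surrogate variables or none and in DESeq2 with 2. The counts of members under the other settings are therefore not read as a result about the members. At the adjusted threshold, calls over all genes, higher and lower, numbered 53 and 55 in DESeq2 with 2 surrogate variables, 4 and 4 without a filter, and 0 to 8 and 0 to 33 with a library left out, and DESeq2 without surrogate variables called 6 lower. DESeq2 with surrogate variables called 1 other gene of the pathway, Tspo. The correlation of Cyp19a1 and Hsd17b1 was 0.94 when centered within groups, against 0.787 without centering. That of Cyp11a1 and Fdx1 fell from 0.703 to 0.530 with centering. The correlation of Cyp17a1 and Star rose from 0.440 to 0.583, and that of Star and Cyp11a1 from 0.203 to 0.324. The permutation test of the centered values shuffled libraries across the groups, and values centered within groups cannot be exchanged in that way. No conclusion is drawn from that test.

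Sign changes were as follows. Cyp19a1 was at -0.23 without surrogate variables, -0.14 with 1, -0.23 in DESeq2 without them and -0.28 without them but with the GC and length correction, so that dropping the surrogate variables alone already changed the sign, and ran from -0.46 to 0.35 with a library left out. Hsd3b1 was at 0.060, 0.037, 0.061 and 0.053 under the same settings and ran from -0.063 to 0.075 with a library left out. With a library left out, Cyp17a1 ran from -0.83 to 0.018, Fdxr from -0.50 to 0.056, Hsd3b6 from -0.35 to 0.54 and Star from -0.085 to 0.30. Their cause was not tested.

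Replicate numbers are shared by the groups. Deviations from the group mean correlated at 0.0957, 0.0965 and -0.25 between same-numbered libraries. The best matches of CNTR 1, 2 and 3 were PAMH F3 1, 3 and 4. With so few libraries these values cannot settle whether the number pairs mice. The fit with a replicate block had no surrogate variables, and 0 members were higher in it at an unadjusted p under 0.05, as without the block. Cyp19a1 was at -0.24 in it, against -0.23 without the block, and Hsd3b6 at -0.18, against 0.22. Hsd3b6 had the fewest counts of the members, 17 to 60, and a spread between mice near that of Cyp19a1.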

Other observations

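Hsd17b7, which encodes an enzyme of cholesterol and estradiol synthesis, was picked out once its values were known. It was at 347, 232 and 161 CPM in CNTR and at 291, 77.7, 234 and 95.9 CPM in PAMH F3, with the groups overlapping (log2 fold change -0.66, edgeR adjusted p = 0.774).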
